A study of Mus musculus with 9 samples.

Results

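Toll-like receptors, their co-receptor Cd14 and the adaptor Myd88 were described in 9 bulk RNA-seq libraries of neutrophils sorted from mouse lung. The 10 genes were *Tlr1*, *Tlr2*, *Tlr4*, *Tlr5*, *Tlr6*, *Tlr7*, *Tlr9*, *Tlr13*, *Cd14* and *Myd88*, taken by symbol from the deposited tables. Their list was made with earlier results of these data known. They were 10 of 22064 genes listed, of which 18325 had values and 14108 passed the filter on low counts, and all 10 passed it. The libraries form 3 groups, all from the lungs of female BALB/c mice, with 3 libraries each. Ly6Ghi was CD45+Ly6g-high neutrophils from lungs with macrometastases, sorted after 4T1-LM3 cells had been injected into the mammary fat pad, and Ly6Glow was CD45+Ly6g-low neutrophils of the same stage. NL was CD45+Ly6g-high neutrophils of normal lungs, and no injection is named for it. 4T1-LM3 cells were derived from 4T1, a mammary carcinoma line of the mouse, by in vivo selection for metastasis to the lung. For the NL libraries one label field names the Ly6g-high group only, so that their assignment rests on the title and the treatment field. Whether mice were pooled for a library is not given, so that each p-value measures the spread between libraries, which may be technical.

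Toll-like receptors recognize conserved microbial molecules and products of damaged tissue. Receptors at the cell surface bind lipids and proteins, those in endosomes bind nucleic acids, and nearly all of them signal through the adaptor Myd88, Irak kinases and Traf6 to NF-κB and to cytokine genes. Neutrophils carry most of these receptors and respond to their ligands with cytokine release, adhesion, degranulation and longer survival, and ligands released from damaged tissue have been studied in the lungs of tumor-bearing mice.

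The libraries held 15267177 to 17841807 estimated counts each. The groups differed in their TMM factors, which rescale the library totals and were 0.945 to 0.950 in Ly6Ghi, 0.803 to 0.807 in Ly6Glow and 1.30 to 1.32 in NL. The 10 most abundant genes took 11.5% to 11.7% of the counts in Ly6Ghi, 9.37% to 9.53% in Ly6Glow and 6.28% in each NL library. Summed over 10 neutrophil markers, the level was 73954 to 76095 CPM (counts in 1000000 after TMM scaling) in Ly6Ghi, 77313 to 79224 in Ly6Glow and 18285 to 18552 in NL. The largest parts of these sums were *S100a9*, with means of 31667, 30616 and 7563 CPM in the same order, and *S100a8*, with 23571, 22036.5 and 4478 CPM. *Ly6g*, the gene of the sorted surface protein, was at 380, 361 and 380.1 CPM in the libraries labelled Ly6Ghi and at 385, 403 and 394 CPM in those labelled Ly6Glow (log2 fold change 0.08, edgeR quasi-likelihood test, adjusted p = 0.058). With TMM scaling its RNA thus did not separate the gates as their labels do. In the deposited FPKM (defined below) it was at 414, 396 and 417 in Ly6Ghi and at 358, 373 and 366 in Ly6Glow. On that scale each Ly6Ghi library lay above each Ly6Glow library. In NL it was at 118 to 120.2 CPM. NL libraries held the highest summed levels of epithelial and endothelial markers, which were 1029 to 1157 CPM over 6 epithelial genes against 77.3 to 85.9 CPM in the other groups, and 770 to 814 CPM over 5 endothelial genes against 117 to 150 CPM. Markers of eosinophils and of basophils and mast cells were highest in Ly6Ghi. Summed over 6 eosinophil genes the level was 80.2 to 86.8 CPM in Ly6Ghi, 7.24 to 8.35 in Ly6Glow and 3.05 to 4.29 in NL, and all 6 were called higher in Ly6Ghi against NL and lower in Ly6Glow against Ly6Ghi, with *Prg3* at 0 in each Ly6Glow library. Over 5 basophil and mast cell genes it was 27.9 to 30.0 CPM in Ly6Ghi, 15.7 to 17.8 in Ly6Glow and 3.33 to 3.55 in NL. The part of these cells in the results was not tested. In bulk samples, fewer cells of a type and less RNA per cell cannot be told apart.

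Levels between genes are compared here only per length, in the deposited FPKM (fragments divided by transcript length and library size), as mean ± SD over 3 libraries. *Cd14*, which hands lipopolysaccharide to Tlr4 and also serves Tlr2, had the highest level of the 10 genes in each group, with 1399 ± 18.5 FPKM in Ly6Ghi, 2930 ± 93.5 in Ly6Glow and 2365 ± 94.8 in NL. *Tlr2*, the receptor of bacterial lipopeptides, followed with 165 ± 0.985, 223 ± 1.60 and 295 ± 2.61 FPKM, and *Myd88* with 165 ± 3.68, 181 ± 4.01 and 109.8 ± 3.10 FPKM. In Ly6Ghi *Tlr2* and *Myd88* overlapped and could not be ordered. *Tlr13*, which binds bacterial ribosomal RNA, was at 78.1 ± 1.06, 111 ± 3.98 and 51.1 ± 1.99 FPKM, above *Tlr1* at 52.0 ± 1.61, 82.2 ± 3.97 and 35.1 ± 1.85 FPKM. *Tlr6* and *Tlr4* lay between 30.4 and 54.7 FPKM in group means, and overlapped each other in Ly6Glow, while *Tlr4* overlapped *Tlr13* in NL. *Tlr7*, *Tlr5* and *Tlr9* closed the order in each group. Their means were 7.80, 2.18 and 0.787 FPKM in Ly6Ghi, 7.95, 2.15 and 0.43 FPKM in Ly6Glow and 16.6, 4.15 and 3.00 FPKM in NL. Neighbors in this order whose overlap is not named here were separated, every library of the higher gene lying above every library of the lower one.

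**Figure D1:**
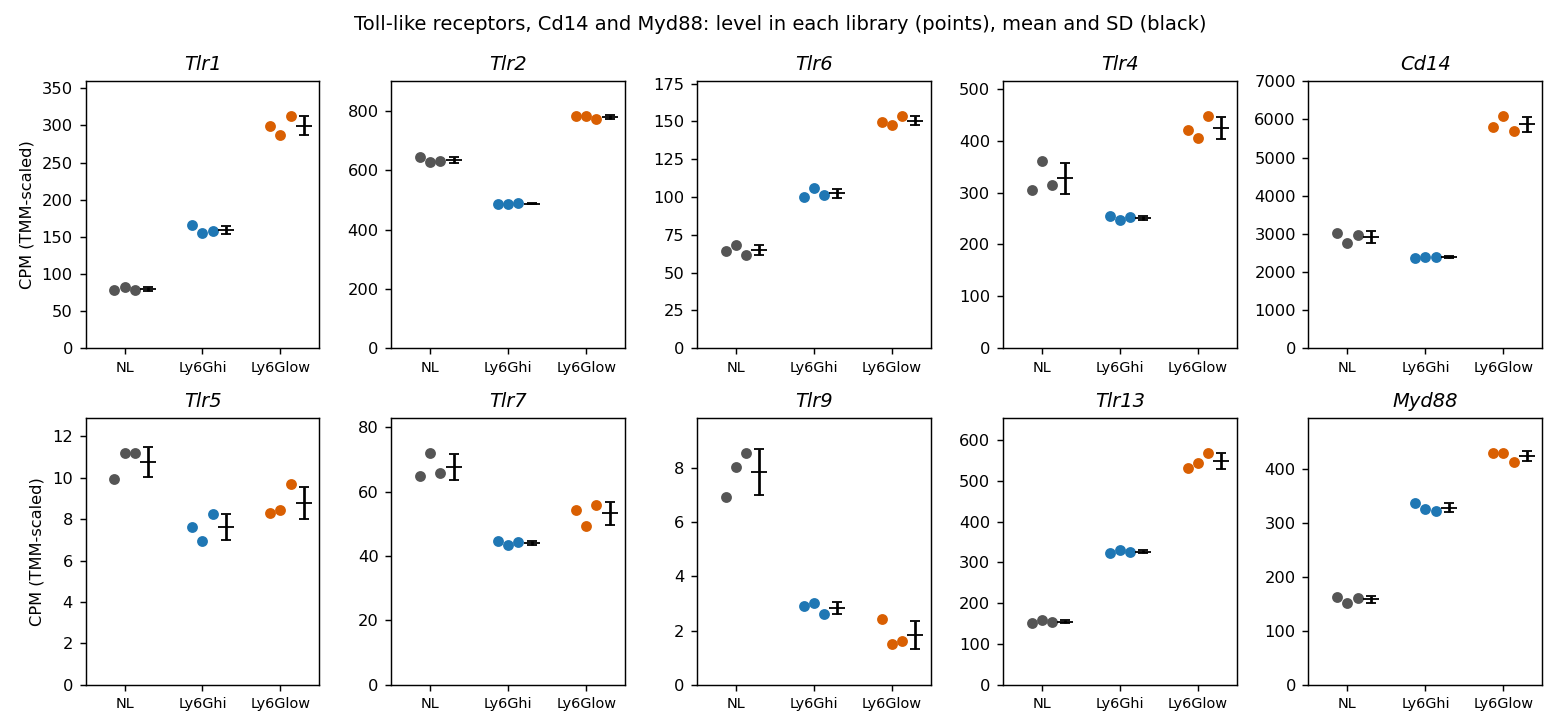
Level of each gene in CPM scaled by TMM factors (y axis, starting at 0) in the 3 libraries of NL, Ly6Ghi and Ly6Glow (points), with mean and SD in black. *Tlr1*, *Tlr6*, *Tlr13* and *Myd88* step up from NL to Ly6Ghi to Ly6Glow, *Tlr2*, *Tlr4* and *Cd14* are lowest in Ly6Ghi, and *Tlr9* is highest in NL; on library totals without scaling factors *Tlr2* and *Tlr4* are higher in NL than in Ly6Glow.

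A gene was called higher or lower at an adjusted p of at most 0.05 (edgeR quasi-likelihood test, Benjamini-Hochberg over all 14108 genes) and a log2 fold change above 0.58 in size, a limit taken from the study's methods. In Ly6Ghi against NL, 4 of the 10 genes were called higher and 2 lower, where 26.3% of all tested genes were called higher, 36.6% lower and 62.9% either way. In Ly6Glow against NL, 5 were called higher and 1 lower, beside 28.7% and 40.8% of all tested genes, 69.5% in all. In Ly6Glow against Ly6Ghi, 5 were called higher and 1 lower, beside 9.29% and 15.9%, 25.2% in all. The median log2 fold change of the 10 genes was -0.34, 0.69 and 0.62 in these comparisons, and that of all tested genes was -0.09, -0.16 and -0.04. In CPM with TMM scaling, the groups were without overlap for each of the 10 genes in all 3 comparisons. This was also so for 85.2%, 86.8% and 62.1% of all tested genes. In FPKM, *Tlr5* and *Tlr7* overlapped between Ly6Glow and Ly6Ghi, and *Tlr6* between Ly6Ghi and NL. Each group enters 2 of the 3 comparisons, which therefore share libraries.

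The direction of several genes against NL depends on the scaling. On library totals without scaling factors, an alternative chosen after the data were seen, the median log2 fold change of all tested genes was -0.55 in Ly6Ghi against NL and -0.86 in Ly6Glow against NL, instead of -0.09 and -0.16. The values of the 10 genes shifted by as much, and on that scale 2 were called higher and 6 lower in Ly6Ghi against NL, and 3 higher and 3 lower in Ly6Glow against NL. The share of higher calls among all called genes went from 41.8% to 20.3% and from 41.3% to 14.3%, and from 36.8% to 13.3% in Ly6Glow against Ly6Ghi. Scaling factors shift all genes alike, so that the distance of a gene from the median of all genes is kept by construction. It differed by at most 0.0018 on the log2 scale among TMM, upper-quartile, DESeq2 and no scaling factors. In Ly6Ghi against NL it was 1.16 for *Tlr13*, 1.14 for *Myd88*, 1.09 for *Tlr1* and 0.75 for *Tlr6*, and -0.21 for *Cd14*, -0.29 for *Tlr2* and *Tlr4*, -0.41 for *Tlr5*, -0.53 for *Tlr7* and -1.38 for *Tlr9*. In Ly6Glow against NL it was 2.07 for *Tlr1*, 1.98 for *Tlr13*, 1.58 for *Myd88*, 1.37 for *Tlr6*, 1.17 for *Cd14*, 0.53 for *Tlr4* and 0.46 for *Tlr2*, and -0.13 for *Tlr5*, -0.19 for *Tlr7* and -1.93 for *Tlr9*. *Tlr2*, *Tlr4* and *Cd14* thus lay below the median in Ly6Ghi and above it in Ly6Glow. That this holds under each of these scalings follows from the construction and is no separate test of it.

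**Figure D2:**
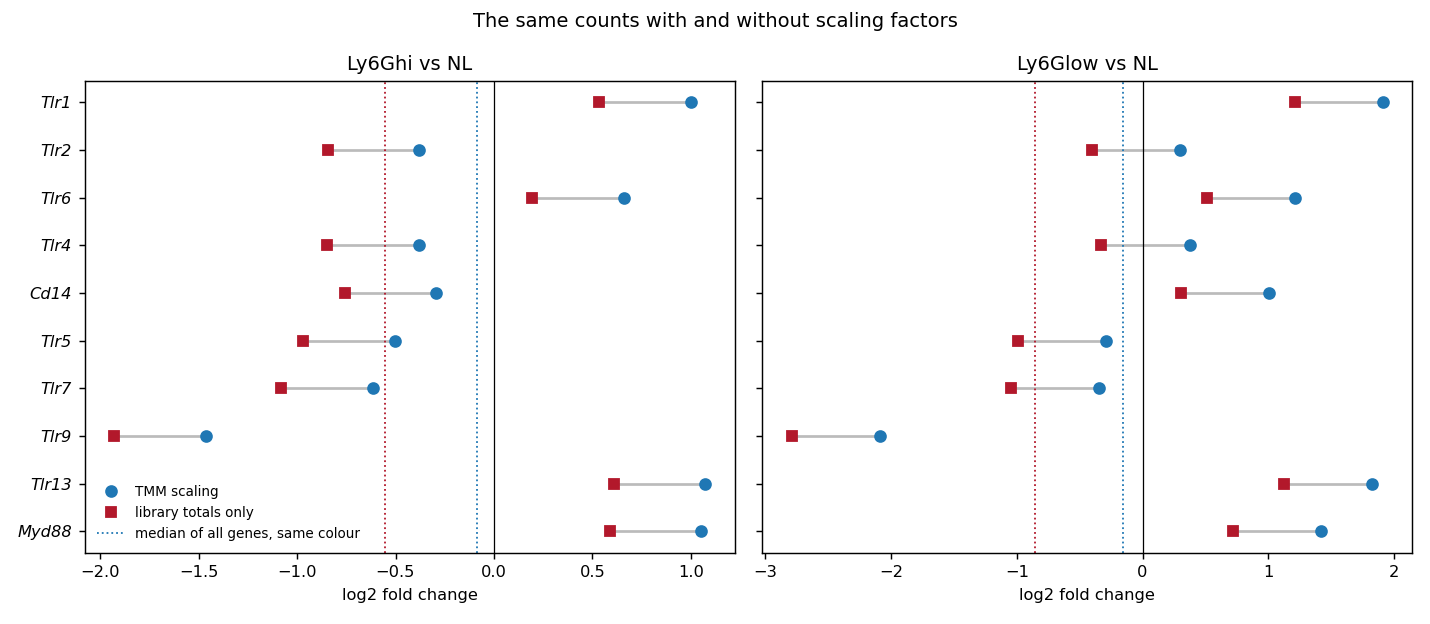
Log2 fold change (x axis) of each gene against NL with TMM scaling (blue circles) and on library totals alone (red squares), with the median of all 14108 genes under each as a dotted line of the same color. The genes keep their distance from the median line by construction, while *Tlr2* and *Tlr4* in Ly6Glow against NL cross 0.

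*Tlr1* forms a heterodimer with Tlr2 that binds triacylated lipopeptides. Its level was 78.6, 82.5 and 78.1 CPM in the NL libraries, 166, 155 and 158 CPM in Ly6Ghi and 299.6, 287 and 313 CPM in Ly6Glow. The groups were far apart and stood in the order NL, Ly6Ghi, Ly6Glow. *Tlr1* rose 2.00-fold in Ly6Ghi against NL (log2 fold change 1.00 ± 0.04 SE, 95% confidence interval 0.91 to 1.09, adjusted p = 1.4e-15), 3.76-fold in Ly6Glow against NL (1.91 ± 0.04) and 1.88-fold in Ly6Glow against Ly6Ghi (0.91 ± 0.04). The first of these calls was lost on library totals, where the log2 fold change was 0.54, and the second came to 1.21 there.

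*Tlr6* is the other partner of Tlr2, for diacylated lipopeptides. It was at 64.4, 68.2 and 61.7 CPM in NL, at 99.96, 106 and 101 CPM in Ly6Ghi and at 149.9, 147.5 and 154 CPM in Ly6Glow. The order of the groups was that of *Tlr1*, with smaller steps. *Tlr6* rose 1.58-fold in Ly6Ghi against NL (log2 fold change 0.66 ± 0.04 SE) and 2.32-fold in Ly6Glow against NL (1.22 ± 0.04), and both calls were lost on library totals (0.20 and 0.51). In Ly6Glow against Ly6Ghi the difference of 0.56 ± 0.04 was under the fold threshold, and it was called higher with DESeq2 or its size factors (0.62 with both) and without the second Ly6Ghi library (0.58). *Tlr1* (chr5:64924680-64933600, minus strand, GRCm38) and *Tlr6* (chr5:64953092-64970942, minus strand) are neighbors, 19491 bases apart with no gene between them, and 454 of the 2976 windows of 50 bases in the *Tlr1* transcript, 15.3%, also occur in that of *Tlr6*. Reads from that stretch could have been assigned to either gene, so that the difference between them is uncertain to that extent. None of the other pairs among the 10 genes and *Tlr8* shared such a window. *Tlr6* overlaps *Fam114a1* and *Mir574* in the annotation, and whether the counting used strand is not given in the sources used here.

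*Tlr2* (chr3:83836272-83841824, minus strand), the shared partner of both, moved otherwise. It was at 645, 627 and 629.8 CPM in NL, at 488, 486 and 490.2 CPM in Ly6Ghi and at 783, 784 and 773 CPM in Ly6Glow. With this scaling Ly6Glow was highest and Ly6Ghi lowest. *Tlr2* rose 1.60-fold in Ly6Glow against Ly6Ghi (log2 fold change 0.68 ± 0.03 SE, adjusted p = 1.6e-14), a call lost on library totals (0.44). Against NL it was under the threshold in both comparisons (-0.38 ± 0.03 in Ly6Ghi and 0.30 ± 0.03 in Ly6Glow), and on library totals the first was -0.84 and called lower, while the second turned to -0.40.

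Ratios of 2 genes within a library do not depend on the scaling of that library. The ratio of *Tlr1* to *Tlr2* in FPKM was 0.115, 0.126 and 0.116 in NL, 0.327, 0.308 and 0.312 in Ly6Ghi and 0.364, 0.351 and 0.39 in Ly6Glow. The receptor partner was thus scarce beside *Tlr2* in NL, and no library of one group reached the range of another. The ratio of *Tlr6* to *Tlr2* was 0.106 ± 0.006 (SD, n = 3) in NL, 0.210 ± 0.009 in Ly6Ghi and 0.196 ± 0.007 in Ly6Glow, of which the last 2 overlapped. The ratio of *Tlr1* to *Tlr6* was 1.12 ± 0.03, 1.51 ± 0.11 and 1.88 ± 0.04 in the same order of groups. With 3 against 3 libraries a two-sided exact permutation test cannot give a p below 0.1, and this smallest value was reached in each comparison of *Tlr1* with *Tlr2* and of *Tlr1* with *Tlr6* (adjusted p = 0.15 over the 18 ratio comparisons made). For *Tlr6* to *Tlr2* it was reached against NL, while Ly6Glow against Ly6Ghi gave an exact permutation p of 0.2.

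**Figure D3:**
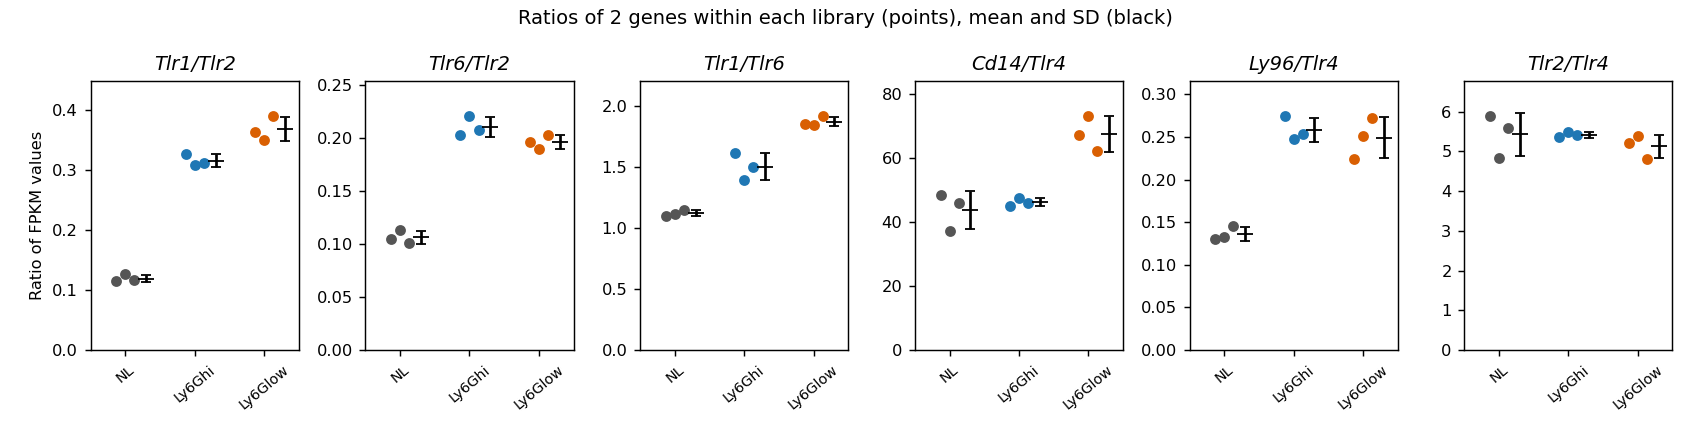
Ratios of FPKM values of 2 genes (y axes, starting at 0) within each of the 3 libraries of NL, Ly6Ghi and Ly6Glow (points), with mean and SD in black. *Tlr1*/*Tlr2* is 0.119 in NL and 0.316 and 0.368 in Ly6Ghi and Ly6Glow, *Cd14*/*Tlr4* is highest in Ly6Glow, and the groups overlap in *Tlr2*/*Tlr4*.

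*Tlr4* (chr4:66827551-66846581, plus strand) is the receptor of lipopolysaccharide and acts with Ly96, also called MD-2, and Cd14. It was at 306, 362 and 315 CPM in NL, at 254, 246 and 253 CPM in Ly6Ghi and at 420.1, 406 and 448 CPM in Ly6Glow. The second NL library was the highest of its group, yet below each Ly6Glow library. *Tlr4* rose 1.69-fold in Ly6Glow against Ly6Ghi (log2 fold change 0.76 ± 0.05 SE, adjusted p = 2.1e-11, 0.52 on library totals, under the threshold). Against NL it differed by -0.38 ± 0.05 in Ly6Ghi and by 0.38 ± 0.05 in Ly6Glow, neither past the threshold. On library totals the first was -0.85 and called lower, and the second turned to -0.33. The ratio of *Tlr2* to *Tlr4* was 5.44 ± 0.54 in NL, 5.42 ± 0.08 in Ly6Ghi and 5.14 ± 0.29 in Ly6Glow (SD, n = 3), with exact permutation p from 0.2 to 1.

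*Cd14*, on chromosome 18, was at 3030.2, 2752 and 2964 CPM in NL, at 2352, 2403 and 2379 CPM in Ly6Ghi and at 5805, 6093 and 5706 CPM in Ly6Glow. Ly6Glow stood well above both groups of Ly6g-high cells. *Cd14* rose 2.47-fold in Ly6Glow against Ly6Ghi (log2 fold change 1.30 ± 0.03 SE, 95% confidence interval 1.23 to 1.37, adjusted p = 4.4e-18), the largest difference of the 10 genes in this comparison, and it was also called on library totals (1.07). Against NL it rose 2.01-fold in Ly6Glow (1.01 ± 0.03), which was 0.31 and under the threshold on library totals. In Ly6Ghi against NL it differed by -0.29 ± 0.03, which was -0.76 and called lower on library totals. The ratio of *Cd14* to *Tlr4* was 43.7 ± 5.90 in NL and 46.1 ± 1.26 in Ly6Ghi, which overlapped, and 67.4 ± 5.51 in Ly6Glow, where each library lay above all others.

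*Ly96*, which Tlr4 needs to bind lipopolysaccharide, was at 2.83, 3.38 and 3.20 CPM in NL, at 4.92, 4.31 and 4.52 CPM in Ly6Ghi and at 6.66, 7.22 and 8.61 CPM in Ly6Glow. It rose in Ly6Glow against NL (log2 fold change 1.26 ± 0.14 SE) and against Ly6Ghi (0.71 ± 0.13), and differed by 0.55 ± 0.14 in Ly6Ghi against NL. On library totals these were 0.56, 0.48 and 0.08, none of them called. Per length, *Ly96* stood at 0.136 ± 0.008 of the level of *Tlr4* in NL, 0.258 ± 0.014 in Ly6Ghi and 0.249 ± 0.024 in Ly6Glow (SD, n = 3).

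*Tlr13* (chrX:106143275-106160493, plus strand) stood in the same order of groups as *Tlr1* and *Tlr6*. It was at 151, 159.9 and 154 CPM in NL, at 323, 330.3 and 326 CPM in Ly6Ghi and at 532, 543 and 569.5 CPM in Ly6Glow. Libraries of one group lay close together and the groups far apart. *Tlr13* rose 2.11-fold in Ly6Ghi against NL (log2 fold change 1.07 ± 0.04 SE, adjusted p = 1.9e-17), 3.54-fold in Ly6Glow against NL (1.82 ± 0.04) and 1.68-fold in Ly6Glow against Ly6Ghi (0.75 ± 0.03). On library totals these were 0.61, 1.12 and 0.51, so that the calls against NL remained and the last was lost.

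*Tlr7* (chrX:167303380-167330574, minus strand), an endosomal receptor of single-stranded RNA, was at 64.9, 72.1 and 65.8 CPM in NL, at 44.5, 43.4 and 44.5 CPM in Ly6Ghi and at 54.3, 49.4 and 56.0 CPM in Ly6Glow. With this scaling NL was the highest group and Ly6Ghi the lowest. *Tlr7* fell 1.53-fold in Ly6Ghi against NL (log2 fold change -0.61 ± 0.05 SE, adjusted p = 6.0e-10), which came to -0.56 and under the threshold without the second NL library, and to -1.08 on library totals. The difference was -0.35 ± 0.05 in Ly6Glow against NL, which was -1.05 and called on library totals. In Ly6Glow against Ly6Ghi it was 0.27 ± 0.06, and 0.03 on library totals.

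*Tlr9* (chr9:106222598-106226876, plus strand), the endosomal receptor of unmethylated CpG DNA, was the least abundant of the 10 genes. It was at 6.92, 8.03 and 8.56 CPM in NL, at 2.89, 3.01 and 2.60 CPM in Ly6Ghi and at 2.44, 1.51 and 1.60 CPM in Ly6Glow. NL lay above every other library, whereas the first Ly6Glow library came near those of Ly6Ghi. *Tlr9* fell 2.76-fold in Ly6Ghi against NL (log2 fold change -1.46 ± 0.14 SE, adjusted p = 4.3e-09) and 4.26-fold in Ly6Glow against NL (-2.09 ± 0.17), calls that were also made on library totals (-1.93 and -2.79). In Ly6Glow against Ly6Ghi it fell 1.54-fold (-0.63 ± 0.21, adjusted p = 0.015), a call that was lost without the second Ly6Ghi library (-0.58), the second Ly6Glow library (-0.50) or the third (-0.54), and with DESeq2 (-0.56).

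*Tlr5* (chr1:182954752-182976044, plus strand), the receptor of flagellin, was at 9.93, 11.2 and 11.2 CPM in NL, at 7.63, 6.97 and 8.23 CPM in Ly6Ghi and at 8.28, 8.43 and 9.68 CPM in Ly6Glow. With this scaling NL was highest, with narrow gaps between the groups. No difference passed the threshold with TMM scaling (log2 fold change -0.50 ± 0.10 SE, -0.29 ± 0.10 and 0.21 ± 0.11 in Ly6Ghi against NL, Ly6Glow against NL and Ly6Glow against Ly6Ghi), and on library totals both differences from NL were called lower (-0.97 and -0.99) while the last was -0.02.

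Markers of some other cell types were also highest in NL, like *Tlr5*, *Tlr7* and *Tlr9*, and their part in these differences was not tested. With TMM scaling *Tlr5* and *Tlr7* were lowest in Ly6Ghi. On library totals they differed by -0.02 and 0.03 in Ly6Glow against Ly6Ghi (log2 fold change), and in FPKM these groups overlapped. Summed over 12 monocyte and macrophage markers, the level was 1012 to 1088 CPM in NL, 606 to 612 in Ly6Ghi and 588 to 606 in Ly6Glow. Of the 12, 8 fell in Ly6Ghi against NL and 9 in Ly6Glow against NL, and 1 was called higher in each. Over 9 dendritic cell markers it was 1231 to 1461 CPM in NL, 482 to 513 in Ly6Ghi and 293 to 315 in Ly6Glow, and all 9 fell against NL in both comparisons. Over 12 alveolar macrophage markers it was 1590.2 to 1606 CPM in NL, 449.9 to 462 in Ly6Ghi and 129.8 to 131 in Ly6Glow. *Tlr9* shared the order of groups of both the dendritic cell and the alveolar macrophage sums. No gene of these 3 lists was at 0 in a whole group. The 5 B cell markers, a lineage in which Tlr9 is well known, summed to 27.4 to 29.9 CPM in NL, 46.3 to 47.3 in Ly6Ghi and 28.1 to 30.04 in Ly6Glow.

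*Myd88* (chr9:119335934-119340018, minus strand), the adaptor shared by nearly all of these receptors, was at 163, 152 and 160.3 CPM in NL, at 338, 327 and 322 CPM in Ly6Ghi and at 431, 429.9 and 414 CPM in Ly6Glow. Both groups from macrometastatic lung stood far above NL. *Myd88* rose 2.07-fold in Ly6Ghi against NL (log2 fold change 1.05 ± 0.04 SE, adjusted p = 3.9e-17) and 2.68-fold in Ly6Glow against NL (1.42 ± 0.04), and both calls were also made on library totals (0.59 and 0.72). In Ly6Glow against Ly6Ghi the difference was 0.37 ± 0.04, under the threshold, and 0.13 on library totals.

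**Figure D4:**
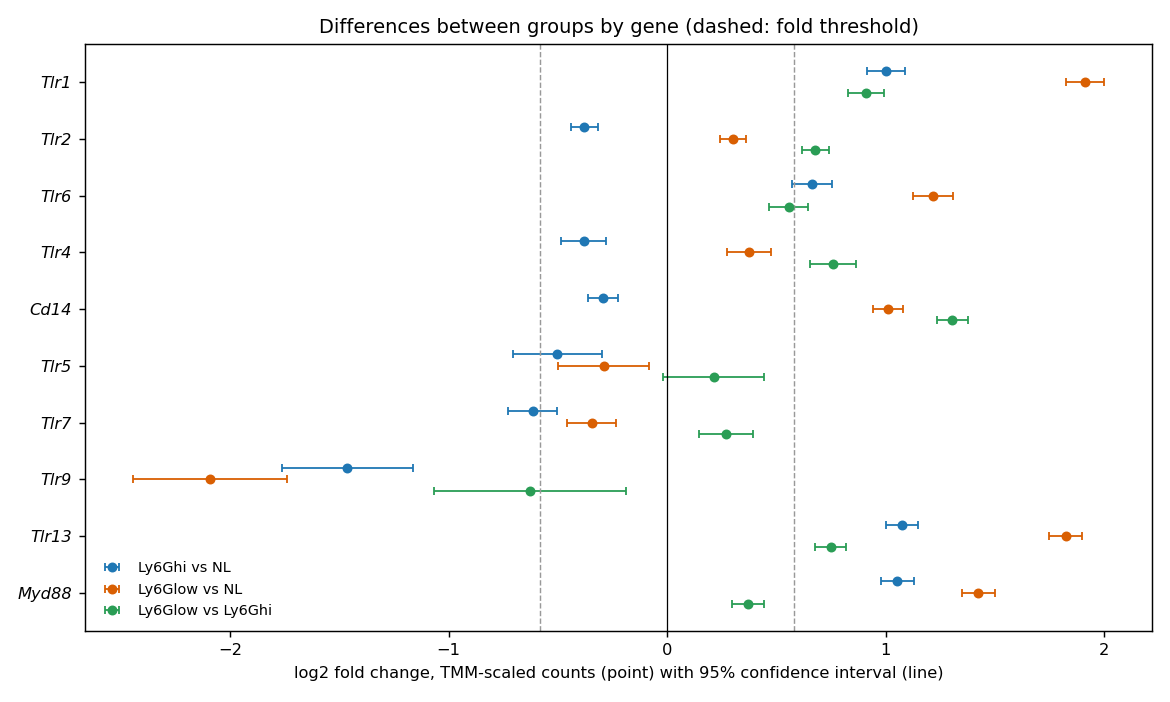
Log2 fold change with TMM scaling (x axis) of each gene in Ly6Ghi against NL (blue), Ly6Glow against NL (orange) and Ly6Glow against Ly6Ghi (green), with 95% confidence intervals and the fold threshold of 0.58 dashed. *Tlr1*, *Tlr13* and *Myd88* lie near 1 in Ly6Ghi against NL and between 1.42 and 1.91 in Ly6Glow against NL, *Cd14* is the largest difference between Ly6Glow and Ly6Ghi, and *Tlr9* lies on the lower side in all 3; on library totals the points of *Tlr2* and *Tlr4* in Ly6Glow against NL fall below 0.

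The promoters of the genes that stood highest in Ly6Glow and lowest in NL are shown with those of *Tlr2* and *Tlr9*, whose order of groups differed, so that the sequences can be compared. They are the 250 bases before a transcription start listed in RefSeq (GRCm38.p6), which held a window for 7 of the 10 genes, and none for *Tlr4*, *Tlr7* or *Cd14*. A gene can have several starts: the *Tlr6* window lies inside the gene span given above, and those of *Tlr1* and *Tlr2* overlap the 5′ ends of theirs. Motifs were searched on both strands and matches are in capitals: the PU.1 core GAGGAA, the C/EBP pattern TTNCNNAA, the interferon-stimulated response element core (GAAA, NN, GAAA) and the NF-κB site. PU.1 and C/EBP factors drive myeloid genes, and the other motifs bind factors activated by interferon and by Toll-like receptors themselves. For *Tlr1* and *Tlr6*, with 2 windows each, the window holding a match is printed, and the other held none.
Tlr1 promoter, chr5:64933559-64933808, minus strand: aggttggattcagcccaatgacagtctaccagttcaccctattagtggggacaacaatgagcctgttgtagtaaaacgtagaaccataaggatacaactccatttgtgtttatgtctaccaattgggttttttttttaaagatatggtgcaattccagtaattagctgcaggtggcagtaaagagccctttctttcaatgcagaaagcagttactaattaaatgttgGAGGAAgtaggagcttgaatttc
Tlr6 promoter, chr5:64959167-64959416, minus strand: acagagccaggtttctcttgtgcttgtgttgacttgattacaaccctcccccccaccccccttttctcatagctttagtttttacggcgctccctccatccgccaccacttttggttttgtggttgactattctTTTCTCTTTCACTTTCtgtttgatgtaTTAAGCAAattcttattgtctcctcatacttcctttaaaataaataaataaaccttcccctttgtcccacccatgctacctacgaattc
Tlr13 promoter, chrX:106143025-106143274, plus strand: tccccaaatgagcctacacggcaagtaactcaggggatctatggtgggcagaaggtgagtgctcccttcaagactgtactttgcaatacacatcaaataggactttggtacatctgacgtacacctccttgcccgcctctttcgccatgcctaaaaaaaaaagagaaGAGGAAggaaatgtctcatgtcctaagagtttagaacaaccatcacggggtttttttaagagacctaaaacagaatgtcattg
Myd88 promoter, chr9:119340019-119340268, minus strand: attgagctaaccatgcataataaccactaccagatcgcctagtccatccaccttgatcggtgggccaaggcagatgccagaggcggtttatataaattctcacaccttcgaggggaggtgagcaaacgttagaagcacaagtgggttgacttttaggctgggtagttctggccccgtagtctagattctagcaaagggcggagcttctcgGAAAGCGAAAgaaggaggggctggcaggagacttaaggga
Tlr2 promoter, chr3:83841609-83841858, minus strand: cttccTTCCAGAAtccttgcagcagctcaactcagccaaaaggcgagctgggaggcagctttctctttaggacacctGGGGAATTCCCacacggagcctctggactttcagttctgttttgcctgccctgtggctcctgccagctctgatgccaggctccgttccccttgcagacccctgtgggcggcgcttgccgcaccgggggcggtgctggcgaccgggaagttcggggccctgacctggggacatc
Tlr9 promoter, chr9:106222348-106222597, plus strand: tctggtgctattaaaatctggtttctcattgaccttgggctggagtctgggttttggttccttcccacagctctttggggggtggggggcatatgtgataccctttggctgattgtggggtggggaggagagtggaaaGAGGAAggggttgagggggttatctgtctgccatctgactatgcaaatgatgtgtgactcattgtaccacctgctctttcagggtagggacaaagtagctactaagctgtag
The capitals mark 1 PU.1 core each in *Tlr1*, *Tlr13* and *Tlr9*, 2 overlapping interferon-stimulated response element cores and 1 C/EBP pattern in *Tlr6*, 1 interferon-stimulated response element core in *Myd88*, and 1 C/EBP pattern and 3 overlapping NF-κB matches, counted by position and strand, in *Tlr2*. The *Tlr5* window held none of them. Of 32851 promoter windows in the table, 23.3% held the PU.1 core, 36.8% the C/EBP pattern, 2.98% the interferon-stimulated response element core and 7.25% the NF-κB site. A PU.1 core thus occurred both in genes that were highest in Ly6Glow and in *Tlr9*, which was lowest there.

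The remaining Toll-like receptors were *Tlr3*, *Tlr8*, *Tlr11* and *Tlr12*. *Tlr8*, a receptor of RNA fragments, was at 71.5, 78.5 and 70.3 CPM in NL, at 106, 101 and 103 CPM in Ly6Ghi and at 133, 132 and 137 CPM in Ly6Glow, and rose in Ly6Glow against NL (log2 fold change 0.87 ± 0.04 SE, 0.17 and not called on library totals). With TMM scaling its group order was that of *Tlr1*, *Tlr6*, *Tlr13* and *Myd88*. In Ly6Ghi against NL, however, *Tlr8* was not called (0.49), was 0.03 on library totals, and overlapped in FPKM. *Tlr3*, which binds double-stranded RNA and signals through Ticam1 instead of Myd88, was at 8.94, 10.2 and 9.46 CPM in NL, at 2.21, 1.89 and 2.17 CPM in Ly6Ghi and at 1.46, 1.13 and 1.14 CPM in Ly6Glow. It fell in all 3 comparisons (-2.19 ± 0.13, -2.93 ± 0.16 and -0.75 ± 0.22 in Ly6Ghi against NL, Ly6Glow against NL and Ly6Glow against Ly6Ghi). *Tlr11* and *Tlr12* were at or below 1.13 and 3.24 CPM in every library, highest in NL, and had a count of 0 in 1 Ly6Glow library each.

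Across the lists of pathway genes, 78 of 79 listed genes were tested. In Ly6Ghi against NL 21 were called higher and 23 lower, with a median log2 fold change of 0.02. In Ly6Glow against NL it was 33 and 21, with a median of 0.42, and in Ly6Glow against Ly6Ghi 18 and 10, with a median of 0.14. Over all tested genes the shares called higher and lower were 26.3% and 36.6%, 28.7% and 40.8%, and 9.29% and 15.9% in these comparisons. On library totals the pathway counts were 8 higher and 35 lower, 9 and 33, and 7 and 19, with medians of -0.44, -0.28 and -0.10. Of all 14108 tested genes, 1742 were then higher and 6847 lower, 1330 and 7996, and 570 and 3730. These figures for all genes also stand beside the counts of the single lists below. Genes named below for a list's small count, or as its examples, were chosen after their values were seen.

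Of 23 adaptors and kinases between receptor and NF-κB, 8 were called higher and 2 lower in Ly6Ghi against NL, 10 and 2 in Ly6Glow against NL, and 2 and 1 in Ly6Glow against Ly6Ghi, which became 1 and 5, 2 and 8, and 0 and 4 on library totals. *Irak4*, the kinase that Myd88 recruits first, rose by 1.60 ± 0.05 and 1.71 ± 0.05 (log2 fold change ± SE) in Ly6Ghi and Ly6Glow against NL, and *Tirap*, which brings Myd88 to Tlr2 and Tlr4, by 0.78 ± 0.04 and 1.23 ± 0.04. On library totals *Irak4* was also called (1.13 and 1.01) and *Tirap* was not (0.32 and 0.53). With TMM scaling, *Irak2* was called lower in Ly6Ghi against NL (-0.86) and was not called in Ly6Glow against NL (-0.06). *Irak1* (0.04 and 0.11) and *Traf6* (-0.15 and -0.34) were called in neither comparison with NL. *Ticam2*, the bridging adaptor of Tlr4 to Ticam1, was the gene that fell in Ly6Glow against Ly6Ghi, by -1.05 ± 0.12. Of 11 tested inhibitors of the pathway, 5 were higher and 2 lower, 9 and 2, and 3 and 1 in the same order of comparisons, and 1 and 3, 1 and 2, and 1 and 1 on library totals. *Nfkbia*, which holds NF-κB in the cytoplasm and is itself one of its targets, rose by 1.58 ± 0.03 in Ly6Ghi against NL, 2.42 ± 0.03 in Ly6Glow against NL and 0.84 ± 0.03 in Ly6Glow against Ly6Ghi, and was called on library totals in each. *Sigirr* and *Socs1* were the inhibitors that fell against NL in both comparisons.

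Of 8 transcription factors, 1 was higher and 3 lower in Ly6Ghi against NL, 1 and 1 in Ly6Glow against NL, and 5 and 0 in Ly6Glow against Ly6Ghi. The 5 were *Rel*, *Rela*, *Relb* and *Nfkb2* of the NF-κB family and *Irf7*, with *Rela* at 0.67 ± 0.05 and *Irf7* at 0.78 ± 0.04 on the log2 scale. On library totals all 5 kept a positive difference, from 0.39 to 0.55, under the threshold, and 6 of the 8 were called lower in Ly6Ghi against NL. Of 13 target cytokine genes including *Ptgs2*, 1 was higher and 7 lower in Ly6Ghi against NL, 4 and 5 in Ly6Glow against NL, and 6 and 0 in Ly6Glow against Ly6Ghi. *Ptgs2*, the inducible cyclooxygenase, rose by 1.28 ± 0.04, *Il1b* by 1.26 ± 0.03, and the chemokine genes *Cxcl2* and *Ccl4* by 1.21 ± 0.04 and 1.19 ± 0.04 in this last comparison, and these 4 were also called on library totals (0.95 to 1.05), where the list held 5 higher and 4 lower genes, beside 1 and 9 in Ly6Ghi and 1 and 7 in Ly6Glow against NL. *Cxcl10*, an interferon-inducible chemokine, fell by 3.06 on the log2 scale in Ly6Ghi against NL, and *Il12a* rose by 2.48 ± 0.17 in Ly6Glow against NL.

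Of 8 genes for proteins described as endogenous ligands of Tlr2 or Tlr4, 4 were higher and 3 lower in each comparison with NL, and 1 and 3 in Ly6Glow against Ly6Ghi. *Saa3*, a serum amyloid A protein, was at 22.1, 24.0 and 22.3 CPM in NL, at 559, 535 and 518 CPM in Ly6Ghi and at 1017, 1042 and 965 CPM in Ly6Glow, and rose by 4.56 ± 0.05 and 5.47 ± 0.05 against NL on the log2 scale. *S100a8*, also among the neutrophil markers, rose by 2.40 ± 0.03 and 2.30 ± 0.03. *Vcan*, which encodes versican, rose by 2.61 ± 0.06 in Ly6Ghi against NL and fell by 0.87 in Ly6Glow against Ly6Ghi. *Bgn* and *Tnc*, genes of extracellular matrix proteins, fell in both comparisons with NL, by 3.13 and 3.10 in Ly6Ghi and by 3.03 and 3.78 in Ly6Glow. Summed over 4 fibroblast markers the level was 367 to 389 CPM in NL and 38.8 to 44.2 CPM in the other libraries, and its part in the fall of *Bgn* and *Tnc* was not tested.

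Of 5 genes for co-receptors and lipopolysaccharide binding, 1 was higher and 2 lower in Ly6Ghi against NL, 2 and 3 in Ly6Glow against NL, and 1 and 2 in Ly6Glow against Ly6Ghi, which became 1 and 3, 1 and 3, and 0 and 3 on library totals. *Lbp*, which passes lipopolysaccharide to Cd14, was at 23.1, 20.9 and 20.8 CPM in NL, at 145, 151 and 144 CPM in Ly6Ghi and at 70.7, 68.1 and 66.6 CPM in Ly6Glow. It rose by 2.76 ± 0.05 in Ly6Ghi against NL and fell by 1.10 in Ly6Glow against Ly6Ghi on the log2 scale, so that of the gates from macrometastatic lung Ly6Glow had the lower *Lbp* and the higher *Cd14*. *Cd36*, a co-receptor of Tlr2 with Tlr6, fell by 2.71 in Ly6Ghi against NL, and *Cd180*, a Toll-like receptor homolog of B cells and myeloid cells, by 2.80 in Ly6Glow against NL. Of 6 genes for folding and transport of the receptors, 1 was higher and 1 lower, 2 and 2, and 0 and 2, and on library totals 0 and 3, 0 and 4, and 0 and 2. *Unc93b1*, which carries Tlr7, Tlr9 and Tlr13 to endosomes, rose by 0.58 ± 0.05 in Ly6Ghi against NL and by 0.64 ± 0.05 in Ly6Glow against NL, which were 0.12 and -0.06 on library totals and not called, and differed by 0.06 ± 0.05 between Ly6Glow and Ly6Ghi. *Hsp90b1*, the chaperone of most Toll-like receptors, fell by 1.04 in Ly6Glow against Ly6Ghi.

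**Figure D5:**
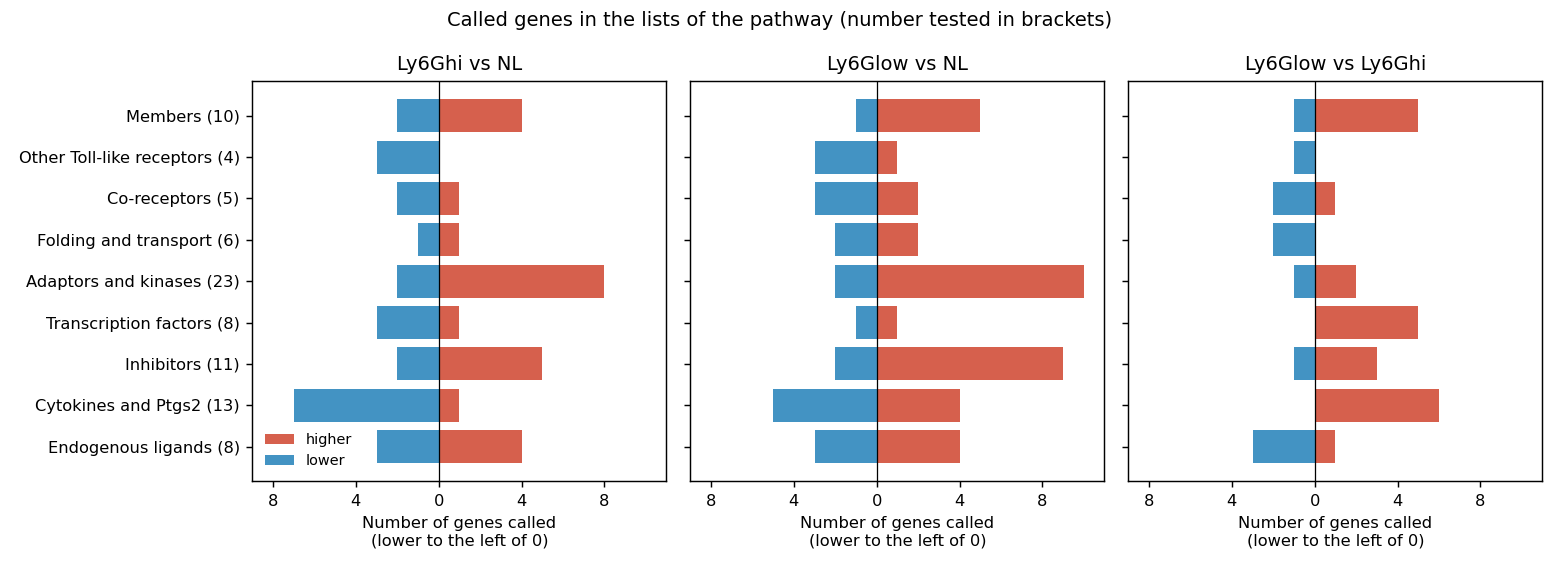
Number of genes called higher (red, to the right) or lower (blue, to the left) with TMM scaling in each list of pathway genes and each comparison, with the number tested in brackets. The transcription factors and the cytokine list hold 5 and 6 higher and 0 lower genes in Ly6Glow against Ly6Ghi (0 and 5 higher, 0 and 4 lower on library totals), and the adaptors and kinases hold 10 higher and 2 lower genes in Ly6Glow against NL (2 and 8 on library totals). With TMM scaling, 9.29% of all tested genes were called higher and 15.9% lower in Ly6Glow against Ly6Ghi, and 28.7% and 40.8% in Ly6Glow against NL.

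The genes whose pattern over the 9 libraries was most like each receptor were sought among 7398 genes with a mean of at least 10 CPM, by Pearson's r of log2 CPM. Since the 9 libraries fall into 3 groups, such an r mainly describes the group means. *Tlr13* was most like *Lcp2* and *Rab32*, *Tlr1* most like *Abcc10* and *Cd84*, *Tlr6* most like *Map2k4* and *Cytip*, and *Myd88* most like *Chil1* and *Bcl6*, each with r of at least 0.999. *Cd14* was most like *Map2k3* and *Ist1*, *Tlr2* most like *Ndel1* and *Ccl4*, and *Tlr4* most like *Pcf11* and *Gm1966* (r from 0.997 to 0.998). *Tlr7* was most like *Slfn8* and *Herc6* and *Tlr9* most like *Asph* and *Grk3* (r from 0.989 to 0.991), and *Tlr5* most like *Simc1* and *Rsrc1* (0.979 and 0.974).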

How the data were processed

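Bulk RNA-seq covered 9 libraries of sorted lung neutrophils, 3 per group, grouped by their titles and treatment fields. The authors deposited an estimated count and an FPKM value for each gene and library. Per the labels, RNA was poly(A)-selected and the libraries were strand-specific and paired-end, and the genome build was mm10. The aligner, the counting program and its strand setting are not given in the sources used here. Estimated counts, of which 37.9% were whole, were rounded. Genes were filtered with filterByExpr and fitted in R 4.3.3 with edgeR 4.0.16 (TMM, quasi-likelihood F test, 1 model for the 9 libraries). Benjamini-Hochberg adjustment ran over 14108 genes, and the SE is the log2 fold change divided by the square root of F. The biological coefficient of variation was 0.0346. The fit was tested on simulated data with known changes. These went up and down in equal numbers, so that the simulation did not test the choice of scaling.

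The study's methods name DESeq2 with P at most 0.05 and a log2 fold change above 0.58. DESeq2 1.42.0 and limma 3.58.1 (on the deposited FPKM, log2 with a pseudocount of 1 or 0.1) were alternatives. The members and lists were chosen with earlier results of these data known. Genes named were the 10 members, *Ly96*, *Unc93b1*, *Tlr3*, *Tlr8*, *Tlr11* and *Tlr12*, per comparison the 4 largest increases and 4 largest decreases among called pathway genes with at least 5 CPM in the higher group, the 2 genes most like each member, and a marker where its list moved with a member. Of 167 listed symbols 1 was absent from the tables. Gene positions and promoters came from RefSeq (GRCm38.p6) and transcripts from GENCODE. No 2 libraries were identical: the chi-square per degree of freedom between libraries of a group was 1.40 to 5.36. The highest values, 5.36 and 4.09, were those of the second NL library with the first and the third, which gave 1.47 with each other. Figures were drawn with matplotlib 3.10.9.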

Additional observations from a re-analysis of the deposited data

How the results depend on the processing

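On library totals without scaling factors, chosen after the data were seen, Ly6Ghi against NL gave 2 higher and 6 lower (4 and 2 with TMM), Ly6Glow against NL 3 and 3 (5 and 1), and Ly6Glow against Ly6Ghi 2 higher (5). The same numbers came from limma on FPKM with either pseudocount or at least 1 FPKM, except that Ly6Glow against Ly6Ghi then also gave 0 lower (1) with a pseudocount of 1 or at least 1 FPKM. These settings turned *Tlr2* in Ly6Glow against NL to -0.40, *Tlr4* to -0.33 on library totals and -0.32 on FPKM, *Tlr5* in Ly6Glow against Ly6Ghi to -0.02 (-0.024 on library totals, -0.022 and -0.016 on FPKM), and *Unc93b1* to -0.06 (-0.058 and -0.055) in Ly6Glow against NL and to -0.17 (-0.18 with a pseudocount of 0.1) in Ly6Glow against Ly6Ghi. Without a fold threshold, 6 members were lower in Ly6Ghi against NL, 3 lower in Ly6Glow against NL and 8 higher in Ly6Glow against Ly6Ghi, and at a threshold of 1 there were 1 lower in the first and 1 higher and 0 lower in the last. DESeq2, and edgeR with its size factors, gave 0 lower in Ly6Glow against Ly6Ghi. Leaving out each library in turn gave 4 higher and 1 to 2 lower, 5 higher and 1 lower, and 5 to 6 higher and 0 to 1 lower in the 3 comparisons. Of the alternatives for the members' fold changes, 473 kept direction and side of the threshold, 45 kept direction but lost a call, 40 gained one and 12 reversed. Replicate numbers did not pair the libraries (correlations of deviations -0.07 to 0.08), and with the replicate number as a block the member counts were again 4 and 2, 5 and 1, and 5 and 1. Of the counts over pathway lists, 227 alternatives stayed within 1.5 times and 109 did not. Among the Toll-like receptors, *Tlr3*, *Tlr9*, *Tlr11* and *Tlr12* had the fewest counts, which limits their precision, and *Ly96* also had few.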
